A study of Rattus norvegicus with 12 samples.

Results

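The genes described here carry out ammonia generation and acid-base transport in the kidney. They were chosen by name as the renal genes whose response is expected in ketosis, and comprise Glud1, Slc38a3, Car2, Car4, Slc4a1, Slc4a4, Slc26a4, Rhbg and Rhcg. Every probe set (a group of oligonucleotides on the array that reports 1 transcript) whose annotation named 1 of these 9 genes alone was taken. There were 13 such probe sets among the 31099 on the array, for 8 of the 9 genes, against 14213 genes with a probe set of their own on the whole array. Rhbg had none under this rule and was not analysed here. Of the 13 probe sets, 12 were bright enough to be tested.

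Transcripts were measured in renal cortex of male rats, on 12 arrays in 4 groups of 3. The diabetic rats (DM) had received 65 mg/kg of streptozocin, which destroys the pancreatic cells that make insulin, into a vein. The younger pair of groups was injected at 4 weeks of age and the older pair at 14 weeks, and the nondiabetic rats (ND) had received vehicle at the same ages. Pellets followed 3 days later, with insulin palmitate for diabetic rats and palmitate vehicle for nondiabetic rats, and the cortex was taken at 10 or 20 weeks of age. The labels give a glucose of 350 to 450 mg/dl over 6 weeks in diabetic rats. No source used here gives the strain, the blood pH, the bicarbonate or the ketones. Streptozocin went with diabetes in every diabetic rat and the labels give insulin pellets for 5 of the 6 diabetic arrays, so the effects of the 3 cannot be told apart. The label of the other, 10-week diabetic replicate 1, names an insulin palmitate vehicle pellet, which leaves unclear whether insulin was given. The Slc26a4 differences, the 10-week Slc38a3 difference and the outcome of the Atp6v1b1 call are also given without that array.

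In the kidney, proximal tubule cells take up glutamine, strip it of its nitrogen as ammonium and return the new bicarbonate to the blood. Farther along, type A intercalated cells of the collecting duct secrete acid and ammonia into the urine, while type B intercalated cells secrete bicarbonate. In metabolic acidosis the glutamine carrier Slc38a3 and the enzymes of ammonia production are known to increase, and the bicarbonate-secreting exchanger Slc26a4 (pendrin) is known to decrease.

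Of the 12 probe sets, 1 passed the test in any of the 3 diabetes comparisons. Slc26a4 fell with diabetes over both ages, by 0.51 ± 0.10 on the log2 scale (SE, 6 diabetic against 6 nondiabetic arrays), a 1.42-fold lower signal. Its limma p-value, adjusted by the Benjamini-Hochberg method over all 18625 probe sets tested, was 0.0110. A probe set is called here where this adjusted p is under 0.05. Glud1, Slc38a3, both carbonic anhydrases, both bicarbonate transporters of the SLC4 family and Rhcg were not called at 10 weeks, at 20 weeks or over both ages.

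**Figure D1:**
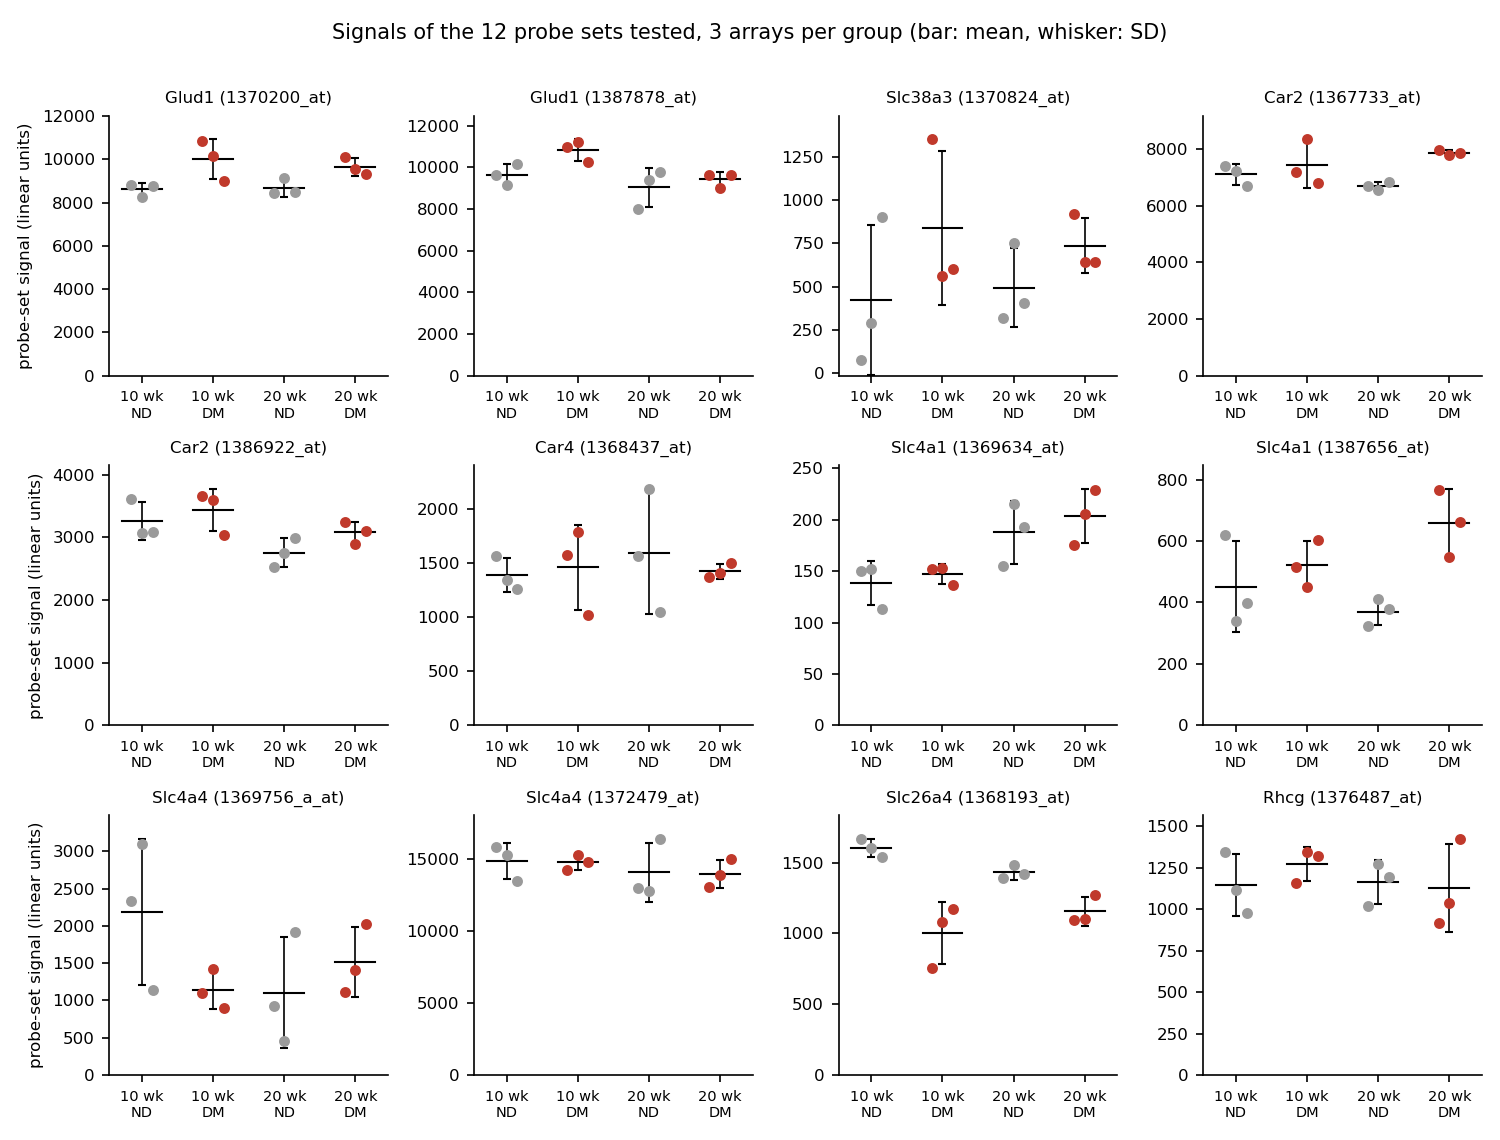
Linear probe-set signal (vertical axis, from 0 or just below it) of the 12 tested probe sets in the 4 groups (horizontal axis; grey, nondiabetic; red, diabetic). Points are single arrays, bars the mean and whiskers the SD of 3 arrays. The diabetic arrays of Slc26a4 lie at 756 to 1171 and at 1094 to 1272, below the nondiabetic arrays of their age. Slc38a3 ranges from 74.4 to 904 over the 10-week nondiabetic arrays alone.

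Slc26a4 exchanges chloride for bicarbonate at the apical face of type B intercalated cells. Its probe set (1368193_at) gave signals of 1670.3, 1603 and 1543 in 10-week nondiabetic rats and of 756, 1080.2 and 1171 in 10-week diabetic rats. At 20 weeks the signals were 1389, 1486 and 1418 without diabetes and 1094, 1099 and 1272 with diabetes. All diabetic arrays lay below all nondiabetic arrays of the same age, at 10 weeks and again at 20 weeks. Of all tested probe sets, 2.59% were lower without overlap at both ages. At 10 weeks alone, 1 of the 12 was lower and 2 were higher without overlap (9.52% and 7.47% of all). At 20 weeks 1 was lower and 3 were higher (10.9% and 10.1%), and 0 of the 12 changed side between the ages (0.601%).

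The group means of Slc26a4 ran in the order 10-week nondiabetic (1605 ± 63.6, SD, n = 3), 20-week nondiabetic (1431 ± 50.0), 20-week diabetic (1155 ± 102) and 10-week diabetic (1002 ± 218). The nondiabetic neighbours in this order did not overlap (1543 to 1670.3 against 1389 to 1486), and the age difference between them was not called (log2 -0.17 ± 0.14, limma adjusted p = 0.741). The diabetic neighbours overlapped. At 10 weeks the diabetes difference was -0.70 ± 0.14 (1.63-fold lower, limma adjusted p = 0.0598). At 20 weeks it was -0.31 ± 0.14 (1.24-fold lower, limma adjusted p = 0.275). Neither single age passed the threshold. The test of the difference between the ages, the interaction (the difference at 10 weeks minus that at 20 weeks), gave -0.39 ± 0.19 with a limma adjusted p of 0.645, so a larger difference at the younger age was not shown.

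The call of Slc26a4 over both ages held in each of 22 alternative settings, with log2 differences from -0.57 to -0.41. The lowest of its signals, 756, was on the array whose label names a vehicle pellet. Without that array the difference was -0.41 over both ages (limma adjusted p = 0.0075) and -0.51 at 10 weeks (limma adjusted p = 0.125). At 10 weeks alone the gene was called when more dim probe sets were left out (adjusted p = 0.0469) and without 10-week diabetic replicate 3 (adjusted p = 0.0396). Across the array 4.47% of probe sets were called over both ages, 2.34% as lower. The share was 0.306% at 10 weeks and 2.84% at 20 weeks.

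**Figure D2:**
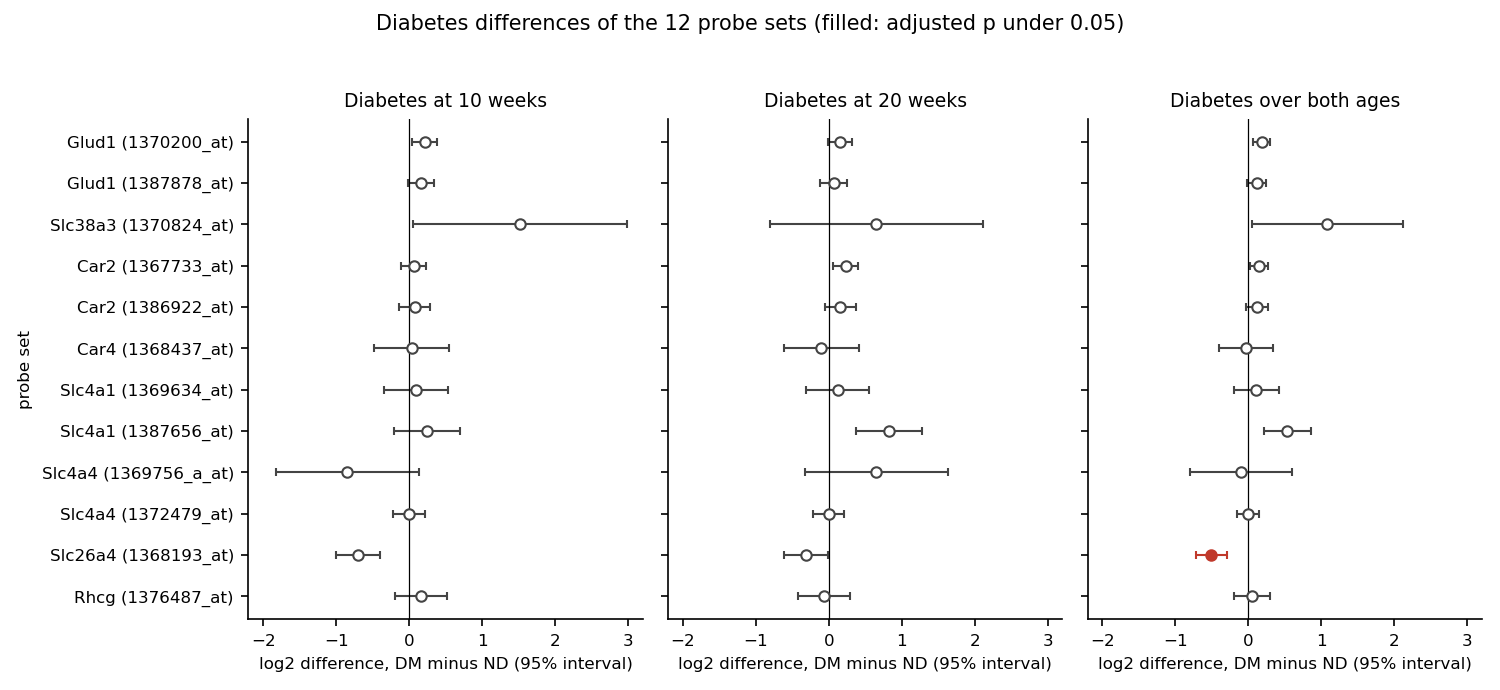
Log2 difference between diabetic and nondiabetic arrays (horizontal axis; points, with 95% intervals) for the 12 tested probe sets (vertical axis) at 10 weeks, at 20 weeks and over both ages. The filled point is the probe set called at an adjusted p under 0.05, Slc26a4 over both ages at -0.51, and the widest intervals are those of Slc38a3.

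Type B and type A intercalated cells share the forkhead factor Foxi1, which is known to be needed for the expression of Slc26a4 and of the proton pump subunit Atp6v1b1. These were the 2 genes of intercalated cells called lower over both ages, and the 250 bases before each start site (RefSeq, build GRCr8) are shown for that reason. The Slc26a4 stretch is at chr6:53873217-53873466 on the minus strand and the Atp6v1b1 stretch at chr4:117781194-117781443 on the plus strand. Capitals mark the forkhead core TGTTTAC.
Slc26a4: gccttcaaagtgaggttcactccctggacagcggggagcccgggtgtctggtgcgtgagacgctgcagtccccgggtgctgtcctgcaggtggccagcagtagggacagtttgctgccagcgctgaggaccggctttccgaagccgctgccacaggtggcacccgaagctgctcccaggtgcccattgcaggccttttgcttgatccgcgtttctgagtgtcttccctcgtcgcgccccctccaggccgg
Atp6v1b1: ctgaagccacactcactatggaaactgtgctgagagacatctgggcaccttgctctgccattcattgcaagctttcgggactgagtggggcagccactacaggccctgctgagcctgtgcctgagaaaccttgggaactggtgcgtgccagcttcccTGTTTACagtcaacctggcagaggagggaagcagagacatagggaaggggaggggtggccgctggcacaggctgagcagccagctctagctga
This motif alone was searched, on both strands. It begins 93 bases before the start of Atp6v1b1, and these letters are not in the Slc26a4 window. Of the 33469 promoter windows of this length in the table, 3.21% hold it. The table has windows for 6 of the 9 genes described here, and 0 of the 6 hold the motif. A match is a description of the letters.

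Atp6v1b1 encodes a subunit of the proton pump of intercalated cells. It gave signals of 795, 722 and 743 in 10-week nondiabetic rats and 518, 566 and 609 in 10-week diabetic rats, with no overlap. At 20 weeks the signals were 574, 618 and 741 without diabetes and 493, 456 and 600.4 with it, and these overlapped. Over both ages it fell by 0.37 ± 0.09 on the log2 scale (limma adjusted p = 0.0431). The call did not hold when single arrays were left out. In 10 of 12 such fits, including that without 10-week diabetic replicate 1, the adjusted p was between 0.0582 and 0.101. The call was lost too under quantile normalization (adjusted p = 0.0525) and median scaling (adjusted p = 0.0808), and was kept in 6 of 22 alternatives in all.

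No other marker of intercalated cells was called. Of 9 listed markers, 6 were on the array and 5 were tested, with 1 called lower over both ages and 0 called higher. On the whole array 2.34% were called lower and 2.14% higher. Foxi1 itself gave 791, 571 and 573 in 20-week nondiabetic rats and 866, 919 and 939 in 20-week diabetic rats. These did not overlap, and 10.1% of all tested probe sets were higher without overlap at that age. The log2 difference of Foxi1 was 0.51 at 20 weeks but 0.13 at 10 weeks, and over both ages 0.32 ± 0.11 (limma adjusted p = 0.153). Over both ages the pump subunit Atp6v0a4 differed by 0.06 ± 0.08 and Atp6v1g3 by -0.06 ± 0.09. The Atp6v1g3 value averages opposite signs. In 10-week rats it was -0.32 ± 0.13 (limma adjusted p = 0.392), and in 20-week rats 0.19 ± 0.13 (limma adjusted p = 0.500). The tested marker not named here had the lowest 20-week difference of the 5, -0.45, and was not called. The summed signal of the tested markers ranged from 12729 to 17032 in 10-week diabetic and from 14721 to 17103 in 10-week nondiabetic rats. At 20 weeks it ranged from 15148 to 17412 with diabetes and from 13342 to 15646 without. In whole cortex fewer cells of a type and less RNA per cell cannot be told apart.

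Slc4a1 (the anion exchanger AE1) returns bicarbonate to the blood from type A intercalated cells and is also the main membrane protein of red cells. Its brighter probe set (1387656_at) gave 322, 411 and 378 in 20-week nondiabetic rats and 767, 547 and 663 in 20-week diabetic rats, without overlap. At 10 weeks it gave 618, 340 and 398 without diabetes and 515, 450 and 602 with it. The 20-week difference was 0.82 ± 0.21 (1.77-fold, 95% interval 1.29 to 2.43), and the limma adjusted p of 0.0590 missed the threshold. Over both ages it was 0.54 ± 0.15 (limma adjusted p = 0.0639), and at 10 weeks 0.25 ± 0.21 (limma adjusted p = 0.717).

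The Slc4a1 difference at 20 weeks lay close to the threshold. It was called with the stricter limit on dim signals (adjusted p = 0.0482), in a fit of the 20-week groups alone (adjusted p = 0.0487) and without 10-week nondiabetic replicate 1 (adjusted p = 0.0229) or replicate 2 (adjusted p = 0.0497). Without 10-week nondiabetic replicate 1 it was also called over both ages (0.66, adjusted p = 0.0135). The other probe set (1369634_at) gave 149.9, 152 and 114 in 10-week nondiabetic and 152, 153 and 136 in 10-week diabetic rats. It gave 155, 216 and 193 in 20-week nondiabetic rats and 176, 206 and 229 in 20-week diabetic rats. Its difference at 20 weeks was 0.12 ± 0.20, so the probe sets of this gene did not give the same size, and the difference between them was not tested.

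Red cell markers were measured beside Slc4a1. Of 8 listed, 5 were on the array and 2 were tested, Hbb (beta globin) and Alas2 (haem synthesis in red cell precursors), with 0 called by limma and 0 at an unadjusted p under 0.05. At 20 weeks their log2 differences were -0.28 ± 0.29 and -0.41 ± 0.46, each smaller than its SE. Ahsp, Epb42 and Car1 were too dim to test, with signals from 1.97 to 79.0. The summed signal ranged from 15098 to 19479 in 20-week nondiabetic and from 10519 to 18674 in 20-week diabetic rats, and overlapped. The part of red cells in the Slc4a1 values was not tested.

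Rhcg carries ammonia across the membranes of collecting duct cells into the urine. Its probe set gave 1346, 1114 and 977 in 10-week nondiabetic and 1155, 1342 and 1322 in 10-week diabetic rats. The 20-week signals were 1016, 1274 and 1195 without diabetes and 916, 1039 and 1425 with it. The groups overlapped at each age, and the log2 difference over both ages was 0.05 ± 0.12 (limma adjusted p = 0.883). Its 95% interval, -0.20 to 0.30, corresponds to a ratio of diabetic to nondiabetic signal between 0.870 and 1.23.

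Glud1 (glutamate dehydrogenase) releases the second ammonium of glutamine inside mitochondria of the proximal tubule. One of its probe sets (1370200_at) gave 8821, 8260.4 and 8751 in 10-week nondiabetic rats and 10831, 10144 and 8999 in 10-week diabetic rats. In the older rats it gave 8417, 9147 and 8467 without diabetes and 10101, 9545 and 9299 with it. Diabetic arrays lay above nondiabetic arrays at each age, as did 2.13% of all tested probe sets. The difference was small: 0.21 ± 0.08 at 10 weeks, 0.15 ± 0.08 at 20 weeks and 0.18 ± 0.06 over both ages, a 1.13-fold higher signal. Over both ages the limma adjusted p was 0.0887, and it was 0.0451 without 10-week diabetic replicate 3.

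The other Glud1 probe set (1387878_at) was higher without overlap at 10 weeks, with 9642, 9155 and 10172 in nondiabetic and 11000, 11234 and 10240 in diabetic rats. In 20-week rats it gave 7982, 9372 and 9777 without diabetes and 9618, 9029 and 9653 with it, and overlapped. Over both ages its log2 difference was 0.12 ± 0.06 (limma adjusted p = 0.338). Beside these genes of the proximal tubule, markers of that segment gave 0 limma calls among 8 tested over both ages. At an unadjusted p under 0.05 there were 3 of the 8, against 17.9% of all probe sets tested. The summed signal of the 8 markers covered similar ranges with diabetes (93615 to 111820 at 10 weeks, 99296 to 105830 at 20 weeks) and without (95838 to 104700 and 93891 to 108340).

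Slc38a3 (the glutamine carrier SNAT3) brings glutamine into proximal tubule cells. Its signals scattered more than those of the other 11 tested probe sets at 10 weeks, with 74.4, 291 and 904 in nondiabetic and 1350.3, 563 and 602 in diabetic rats. At 20 weeks they were 322, 750.1 and 406 without diabetes and 918, 642 and 643 with it. The groups overlapped at both ages. The coefficient of variation over the 10-week nondiabetic arrays was 102%, against 3.96% for Slc26a4 over the same arrays.

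The log2 differences of Slc38a3 were 1.52 ± 0.67 at 10 weeks (limma adjusted p = 0.440), 0.65 ± 0.67 at 20 weeks (limma adjusted p = 0.684) and 1.08 ± 0.48 over both ages (limma adjusted p = 0.254). The 95% interval over both ages ran from 1.04-fold to 4.34-fold higher. Single arrays decided the value. Without 10-week nondiabetic replicate 1 the difference over both ages was 0.62 (adjusted p = 0.396). Without 10-week nondiabetic replicate 3 it was 1.52 and was called (adjusted p = 0.0335). The highest Slc38a3 signal, 1350.3, was on 10-week diabetic replicate 1. Leaving that array out gave a 10-week difference of 1.11 (limma adjusted p = 0.725).

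Array 10-week nondiabetic replicate 1 was low for Cidec and Slc12a1 too. It was the highest of its group for Slc26a4 (1670.3), Rhcg (1346), the tested Car4 probe set (1569) and 1 Glud1 probe set (1370200_at, 8821). The same held for both Car2 probe sets (7396 and 3616) and the brighter Slc4a1 (618) and Slc4a4 (15839) probe sets. Cidec, a lipid droplet protein on the fat list, gave 4.49 there. It gave 213 and 569 on the other 10-week nondiabetic arrays and 953, 258 and 519 on the 10-week diabetic arrays. Its log2 difference over both ages was 1.78 ± 0.89 (limma adjusted p = 0.328). Of 4 fat markers, Plin1 and Lep were too dim to test and Adipoq ranged from 141 to 245. The summed signal of the 2 tested fat markers was 162 to 772 in 10-week nondiabetic and 400.2 to 1120.2 in 10-week diabetic rats. Slc12a1, which carries ammonium into the thick ascending limb, gave 2844 on that array, the lowest of its 12 signals. The part of these in the Slc38a3 values was not tested.

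**Figure D3:**
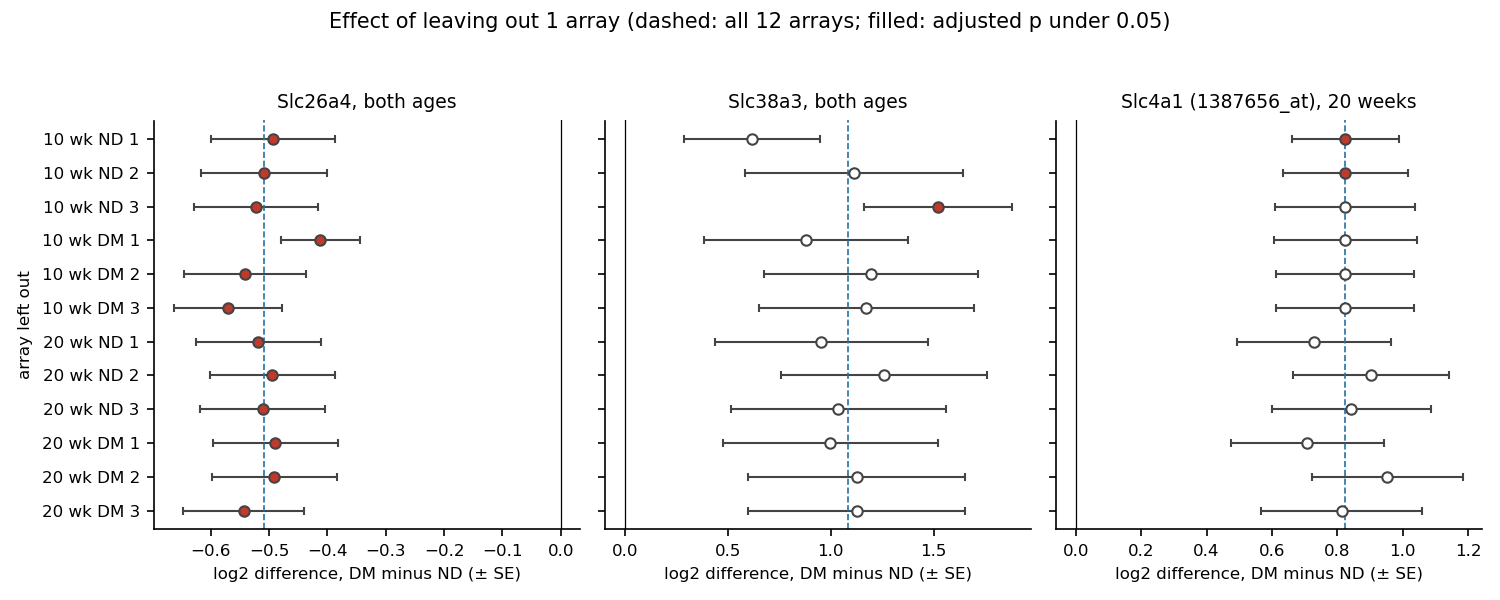
Log2 difference between diabetic and nondiabetic arrays (horizontal axis; points, whiskers ± SE) after leaving out each array named on the vertical axis, for Slc26a4 and Slc38a3 over both ages and for Slc4a1 (1387656_at) at 20 weeks. Filled points have an adjusted p under 0.05 and the dashed line is the value with all 12 arrays. Slc26a4 is filled in all 12 rows (-0.57 to -0.41), and Slc38a3 moves between 0.62 and 1.52.

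Slc4a4 (the sodium bicarbonate cotransporter NBCe1) carries bicarbonate from proximal tubule cells to the blood. Its brighter probe set (1372479_at) gave 15839, 15326 and 13479 in 10-week nondiabetic and 14261, 15300 and 14845 in 10-week diabetic rats. The older rats gave 13029, 12817 and 16447 without diabetes and 13058, 13946 and 15001 with it. The groups overlapped throughout, and the log2 difference over both ages was -0.00 ± 0.07, with a 95% interval of -0.16 to 0.15.

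The other Slc4a4 probe set (1369756_a_at) spread far more. It gave 2329, 3091 and 1141 in 10-week nondiabetic and 1104, 1421 and 902 in 10-week diabetic rats. The signals at 20 weeks were 927, 459 and 1923 without diabetes and 1114, 1409 and 2030 with it. The differences had opposite signs, -0.85 ± 0.45 at 10 weeks (limma adjusted p = 0.534) and 0.65 ± 0.45 at 20 weeks (limma adjusted p = 0.514). The interaction was -1.50 ± 0.64 with a limma adjusted p of 0.603.

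Car2 is the cytosolic carbonic anhydrase of proximal tubule and intercalated cells. The brighter probe set (1367733_at) gave 6698, 6565 and 6844 in 20-week nondiabetic and 7961, 7790.2 and 7847 in 20-week diabetic rats, without overlap. At 10 weeks it gave 7396, 7238 and 6687 without diabetes and 7184, 8342 and 6799 with it, and overlapped. Its 20-week difference was 0.23 ± 0.08 (1.17-fold, limma adjusted p = 0.155) and that over both ages 0.15 ± 0.06 (limma adjusted p = 0.182). The dimmer probe set (1386922_at) overlapped at both ages, ranging from 2536 to 3616 in nondiabetic and from 2900.4 to 3658 in diabetic rats, with a difference of 0.12 ± 0.07 over both ages.

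Car4 is the carbonic anhydrase anchored to the outer face of proximal tubule membranes. Its tested probe set (1368437_at) gave 1569, 1348 and 1263 in 10-week nondiabetic and 1575, 1790.1 and 1022 in 10-week diabetic rats. In 20-week rats the signals were 1565, 2189 and 1047 without diabetes and 1370.2, 1407 and 1502 with it. The groups overlapped, and the difference over both ages was -0.03 ± 0.17 (limma adjusted p = 0.950). The other Car4 probe set (1391132_at), with signals from 2.54 to 67.2, was too dim to test.

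The median absolute log2 difference of the 12 probe sets was 0.163 at 10 weeks, against 0.156 for all probe sets tested. At 20 weeks it was 0.157 against 0.183, and over both ages 0.117 against 0.131. With 1 probe set standing for each of the 8 genes, 6 had a positive sign at 10 weeks, 4 at 20 weeks and 5 over both ages. Limma called 0 of the 12 at 10 weeks, 0 at 20 weeks and 1 over both ages. At an unadjusted p under 0.05 there were 3 of 12 at 10 weeks, 3 at 20 weeks and 5 over both ages, against 10.9%, 16.8% and 17.9% of all probe sets tested. The medians lay near those of the array. These counts are of 12 probe sets, some of the same gene, and the members were chosen with earlier results known. No excess over the array is read from them.

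The diabetes response of these genes was not shown to depend on age. In the interaction limma called 0 of the 12, with 1 at an unadjusted p under 0.05 (the dimmer Slc4a4 probe set). Over the whole array 0.0% were called and 1480 of 18625 had an unadjusted p under 0.05. Between 10 and 20 weeks in nondiabetic rats, limma called 0 of the 12, with 3 at an unadjusted p under 0.05, and again 0.0% of all probe sets (1603 had an unadjusted p under 0.05). The 3 were the dimmer Car2 probe set (-0.24 ± 0.10), the dimmer Slc4a1 probe set (0.44 ± 0.20) and the dimmer Slc4a4 probe set (-1.11 ± 0.45), with adjusted p-values of 0.560, 0.578 and 0.560.

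Other genes of renal ammonia and acid-base handling were listed in 3 groups. Of 55 genes, 45 were on the array and 37 were tested. Limma called 0 at 10 weeks in either direction, 3 lower and 0 higher at 20 weeks, and 3 lower and 0 higher over both ages. At an unadjusted p under 0.05 there were 10, 10 and 11 of the 37, against 10.9%, 16.8% and 17.9% of all probe sets tested. Genes here and in the groups below are counted by their brightest probe set, while the array's percentages include dimmer ones. The bases are therefore unlike. The shares called lower on the whole array were 0.183%, 1.62% and 2.34%, and those called higher 0.123%, 1.22% and 2.14%. The median log2 difference of the 37 was 0.04 at 10 weeks, 0.04 at 20 weeks and 0.07 over both ages, while that of all probe sets tested was -0.02, -0.00 and -0.01.

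The ammonia group covers glutamine metabolism and the carriers of glutamine and ammonium. Limma called 0 of its 14 tested genes in each diabetes comparison, with 3, 1 and 2 at an unadjusted p under 0.05, against the array's 10.9%, 16.8% and 17.9%. Pck1, Got2 and Glul are named for their roles, after their values were seen. Pck1 (phosphoenolpyruvate carboxykinase), which removes the carbon left from glutamine, had a log2 difference of 0.18 ± 0.10 over both ages (limma adjusted p = 0.377). The difference was 0.15 ± 0.05 (limma adjusted p = 0.143) for Got2, the mitochondrial aspartate aminotransferase. For Glul, glutamine synthetase, which consumes ammonia, it was 0.19 ± 0.09 (limma adjusted p = 0.256). Hcn2, a cation channel reported to carry ammonium, gave 133, 161 and 147 in 10-week nondiabetic and 207, 237 and 248 in 10-week diabetic rats. Its difference there was 0.65 ± 0.18 (limma adjusted p = 0.187). At 20 weeks it gave 226, 229 and 228 without diabetes and 181, 242 and 171 with it, a difference of -0.22 ± 0.18 (limma adjusted p = 0.580). The groups did not overlap at 10 weeks and overlapped at 20 weeks. The interaction of 0.87 ± 0.25 (limma adjusted p = 0.466) and the age difference of 0.64 ± 0.18 in nondiabetic rats (limma adjusted p = 0.455) were not called.

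The proximal tubule group held the genes called at 20 weeks. Slc26a6, an apical exchanger of chloride, oxalate and bicarbonate, gave 314, 239 and 288 in 20-week nondiabetic and 53.4, 132 and 84.0 in 20-week diabetic rats. It fell by 1.73 ± 0.30 on the log2 scale (3.32-fold lower, limma adjusted p = 0.0096). It was called in each of the 22 alternatives that tested it, and the other of the 23 left it out as too dim. At 10 weeks its signals were 280.2, 188 and 223 without diabetes and 279, 239 and 183 with it, a difference of 0.02 ± 0.30. Its interaction of 1.75 ± 0.42 was not called (limma adjusted p = 0.40). The diabetic signals at 20 weeks lay near the limit set on dim probe sets (a mean signal of 70.9 over all arrays), so the size of the fold is uncertain.

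Slc13a3, a basolateral carrier of dicarboxylates, gave 15619, 14656 and 15262 in 20-week nondiabetic and 10116, 12381 and 11186 in 20-week diabetic rats. It fell by 0.44 ± 0.09 at 20 weeks (1.36-fold lower, limma adjusted p = 0.0190) and by 0.29 ± 0.06 over both ages (limma adjusted p = 0.0166). The 20-week call was lost without 20-week nondiabetic replicate 1, diabetic replicate 1 or diabetic replicate 3 (adjusted p from 0.0535 to 0.0656). It was lost too with no intensity trend (0.0776), in a fit of the 20-week groups alone (0.0505) and without both the vehicle-labelled array and 20-week nondiabetic replicate 1 (0.0727), and was kept in 17 of 23 alternatives. The call over both ages held in all 12 fits that left out 1 array, and was lost with no intensity trend (adjusted p = 0.0680) and without both those arrays (adjusted p = 0.0834).

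Car5b, a mitochondrial carbonic anhydrase, gave 3568, 3817 and 3451 in 20-week nondiabetic and 2582, 2652 and 2435 in 20-week diabetic rats. It fell by 0.50 ± 0.11 there (1.41-fold lower, limma adjusted p = 0.0349), and 7 of 12 fits without 1 array gave an adjusted p between 0.0511 and 0.123. The dimmer Car5b probe set differed by -0.25 ± 0.17 and was not called. Slc26a6 over both ages fell by 0.86 ± 0.21 (limma adjusted p = 0.0383), with the adjusted p between 0.0507 and 0.0925 in 10 of 12 such fits.

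The smallest p-values of the listed genes in the other comparisons included 2 more genes of the proximal tubule group. Nherf1, the scaffold protein that binds Slc9a3, gave 6879.8, 6621 and 8023 in 10-week nondiabetic and 10173, 8175 and 8639 in 10-week diabetic rats, without overlap. Its difference of 0.33 ± 0.10 was not called (limma adjusted p = 0.264). Car3, a cytosolic carbonic anhydrase abundant in muscle and fat, gave 59.8, 49.8 and 74.9 in 10-week and 227, 104 and 122 in 20-week nondiabetic rats. This age difference of 1.23 ± 0.39 was not called (limma adjusted p = 0.490).

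**Figure D4:**
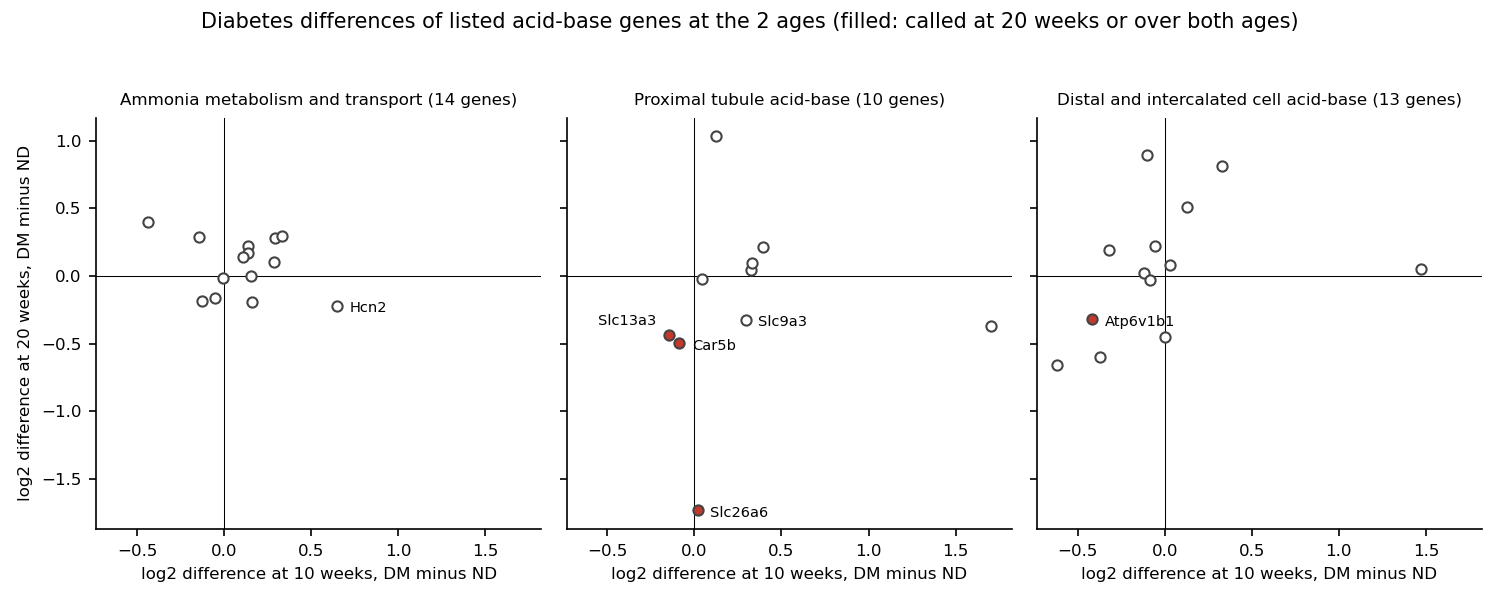
Log2 difference between diabetic and nondiabetic arrays at 10 weeks (horizontal axis) against that at 20 weeks (vertical axis) for the tested genes of the 3 listed groups, 1 point per gene (its brightest probe set). Filled points are genes called at 20 weeks or over both ages, and Slc26a6 lies lowest at -1.73 on the vertical axis.

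**Figure D5:**
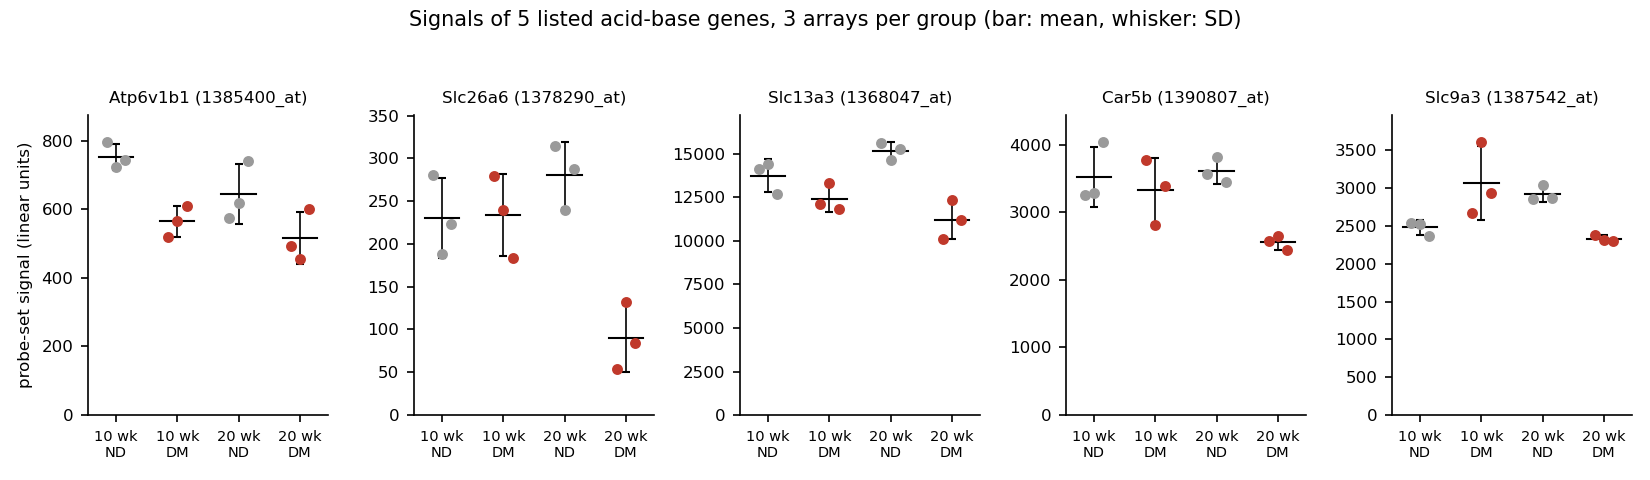
Linear probe-set signal (vertical axis, from 0) of 5 listed genes in the 4 groups (grey, nondiabetic; red, diabetic). Points are single arrays, bars the mean and whiskers the SD of 3 arrays. The 20-week diabetic arrays of Slc26a6 (53.4 to 132), Slc13a3 (10116 to 12381) and Car5b (2435 to 2652) lie below the 20-week nondiabetic arrays, and those of Slc9a3 change side between the ages.

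The distal group, with pumps and exchangers of intercalated cells, had Atp6v1b1 as the 1 gene called over both ages among 13 tested. Slc4a11, a membrane transporter of the SLC4 family, gave 184, 124 and 118 in 20-week nondiabetic and 260, 282 and 236 in 20-week diabetic rats, a difference of 0.89 ± 0.23 (limma adjusted p = 0.0574), and is named because its value was seen to be near the threshold. Between the nondiabetic ages, Atp12a, the catalytic subunit of the colonic proton-potassium pump, differed by 1.39 ± 0.55 (limma adjusted p = 0.544).

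Markers of other cell types were measured beside these genes. Of 7 principal cell markers, 2 were called higher and 1 lower over both ages. Aqp2, the vasopressin-regulated water channel, rose by 0.55 ± 0.09 on the log2 scale (limma adjusted p = 0.0039). Fxyd4, a regulator of the sodium pump, rose by 0.78 ± 0.15 (limma adjusted p = 0.0091), and Hsd11b2, which inactivates glucocorticoids, fell by 0.62 ± 0.13 (limma adjusted p = 0.0192). Of the inner medulla list, Aqp4 and Slc5a3 were called higher at 20 weeks, where the summed signal was 2462 to 3083 with diabetes and 1157 to 1532 without. The urea transporter Slc14a2, also on that list, overlapped at 58.8 to 129.9 against 68.0 to 162, near the limit set on dim probe sets (70.9). Glomerulus and podocyte markers had negative differences over both ages in 4 of 4 tested. Of them Nphs1 (nephrin) fell by 0.48 ± 0.10 (limma adjusted p = 0.0157), and 3 had an unadjusted p under 0.05. Their summed signal at 20 weeks was 4038 to 4487 with diabetes and 4945 to 5427 without. Leukocyte markers had positive differences in 4 of 4 tested, with 0 called by limma and 3 at an unadjusted p under 0.05. Their summed signal at 20 weeks was 16025 to 22970 with diabetes and 11299 to 20695 without. Markers of the thick ascending limb (4 tested), the distal convoluted tubule (2) and endothelium (4) had 0 limma calls over both ages, with 0, 2 and 2 at an unadjusted p under 0.05. The part of these shifts in the Slc26a4 and Atp6v1b1 values, and in those of the other members, was not tested.

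Transcripts that followed Slc26a4 most closely were sought over the 12 arrays. Among 10573 other genes, the highest Pearson correlations of log2 signal were those of Pm20d2 (0.911), Magi3 (0.900), Pofut2 (0.893), Nedd9 (0.878) and Rnf227 (0.876). The 12 points share their 4 groups, and the values are a description. Of these, Pm20d2 gave 1791, 2029.5 and 1486.5 in 10-week nondiabetic and 898, 1148 and 1111 in 10-week diabetic rats. The older rats had 1407, 1532 and 1517 without diabetes and 1068.5, 1231 and 1141 with it. These values restate the likeness by which the gene was picked and are given with no test.

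Correlations between arrays over the tested probe sets lay between 0.941 and 0.976. The Gapdh control probe sets for the 3' and 5' ends of the transcript, whose ratio goes up when RNA is broken, gave ratios from 1.41 to 2.09, the highest in 20-week nondiabetic replicate 1. The matching actin ratios ran from 6.30 to 11.4, with the highest in 20-week diabetic replicate 2 (11.4), 20-week nondiabetic replicate 1 (11.2) and 20-week diabetic replicate 3 (10.0). The part of the actin ratio in the results was not tested. With the Gapdh ratio in the fit the Slc26a4 difference over both ages was -0.51 (limma adjusted p = 0.0177). Without both that array and the vehicle-labelled array it was -0.42 (limma adjusted p = 0.0138). Under that setting limma called 10 probe sets at 10 weeks, 331 at 20 weeks and 490 over both ages, against 57, 529 and 833 with all arrays.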

How the data were processed

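Biotin-labelled cRNA of 12 renal cortex samples was hybridised to 1 array each. The deposited values are linear probe-set intensities that the authors made with GCOS, per the submitters' processing notes. No source used here gives its version or summary method. Each array had a trimmed mean of 500 (2% cut at each end), so differences are relative to the rest of the array and a common shift would not show.

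Values below 1 (424) were set to 1 and log2 was taken. The 57 control probe sets and the dimmest 40% were left out (limit 70.9). Gene names came from the array annotation, updated through RefSeq: 20826 probe sets named 1 gene, 436 several and 9780 none. limma 3.58.1 in R 4.3.3 fitted 4 group means to all 12 arrays (8 residual degrees of freedom, eBayes with an intensity trend, two-sided tests, Benjamini-Hochberg over 18625 probe sets). The test was checked on simulated data.

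The members and lists were chosen with earlier results of these data known. Named were all member probe sets, the listed genes called in a comparison (or the 3 with the smallest p), and the 5 genes most correlated with the member of smallest p over both ages. The number of arrays limits the precision. Nothing says which rat or rats an array came from, so p-values reflect only the spread among these samples, which may be technical. Same-numbered arrays did not vary together (correlations of -0.15 to 0.15 over 18 pairs), so the numbers were not used as pairs. Alternatives were other scalings, filters, offsets and variance estimates, array weights, 2-group fits, a replicate block, and arrays left out, with the Gapdh 3'/5' ratio as a covariate added after the data were seen.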

Additional observations from a re-analysis of the deposited data

Results flagged for a closer look

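Slc9a3, the sodium-proton exchanger NHE3 of the proximal tubule and 1 of the listed genes, moved in opposite directions at the 2 ages. At 10 weeks it gave 2546, 2530.1 and 2367 in nondiabetic and 2668, 3607 and 2932 in diabetic rats, and at 20 weeks 2864, 3049 and 2866 in nondiabetic and 2387, 2320 and 2298 in diabetic rats. All diabetic arrays were higher at the younger age and all were lower at the older age, as in 0.601% of all tested probe sets. The interaction was 0.62 ± 0.14 on the log2 scale, and its limma adjusted p of 0.40 missed the threshold. Over 22 alternatives it lay between 0.50 and 0.76, with adjusted p-values from 0.210 to 0.707.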

How the results depend on the processing

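Of 1682 single-gene values recomputed under 23 alternatives, 1558 kept their sign and side of the threshold and 67 changed sign, none of them called. Member probe sets called at 10 weeks were 1 in place of 0 under the stricter filter (0 to 1 without 1 array). At 20 weeks they were 1 in place of 0 under the stricter filter and in 2-group fits (0 to 1 without 1 array), and over both ages 1 to 2 without 1 array. Probe sets called at 10 weeks were 57, but 7 with no intensity trend, 9 in 2-group fits, 10 without both doubted arrays and 5 to 115 without 1 array. At 20 weeks they were 529, but 191 with no trend, 309 in 2-group fits, 331 without both doubted arrays and 194 to 520 without 1 array. Over both ages they were 833, but 502 with no trend, 490 without both doubted arrays and 525 to 823 without 1 array. The interaction gave 3 calls in place of 0 with the Gapdh ratio as covariate and 0 to 2 without 1 array, and age in nondiabetic rats 1 under median scaling and 0 to 9 without 1 array. The cause was not tested. Median scaling moved the median of all probe sets at 10 weeks from -0.02 to 0.09.

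Replicate numbers gave no pairing. With the replicate number as a block, 32 probe sets were called at 10 weeks, Slc26a4 over both ages kept its call (adjusted p = 0.0137), and Car5b at 20 weeks (0.0569) and Slc26a6 over both ages (0.0654) lost theirs. Dim signals limit the fold sizes of Slc26a6 and Atp12a.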
